A study of Mus musculus with 10 samples.

Results

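Ileum and distal colon, the last stretch of the small bowel and the last stretch of the large bowel, were compared gene by gene in male mice of the outbred ICR stock. The comparison used 4 of the 10 arrays of the series: ileum at 4 months, ileum at 28 months, distal colon at 4 months and distal colon at 28 months. Each array was hybridised with pooled RNA, in equal amounts from 6 mice at 4 months or from 9 mice at 28 months, and the same mice gave all tissues of an age. The mice carried no transgene and received no agent. All were housed singly, free of specific pathogens, on the AIN-93 diet, having been obtained at 2 months for the younger group and at 8 months for the older. The remaining 6 arrays held jejunum, liver and spleen of the same pools, and jejunum is given beside the results where it places a gene along the bowel. The labels give no value per animal, do not say how far from the caecum or anus a piece was taken, and do not say whether muscle was removed.

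The ileum recovers bile salts, cobalamin and what is left of sugars, amino acids and fat, across villi clothed in absorptive cells, with Paneth cells at the base of its crypts. The distal colon has no villi. Its surface cells recover sodium, chloride and water under the control of aldosterone, its goblet cells maintain a dense mucus layer over a rich microbial flora, and Paneth cells are normally missing from it. Scattered hormone cells differ along the bowel as well: neurotensin and secretin are known mostly from the small bowel, and peptide YY and insulin-like peptide 5 mostly from the colon.

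The arrays were Affymetrix mouse genome arrays, a type that reads each transcript by probe sets near its 3' end, and signals are in arbitrary units, with 111 units taken as the floor below which a signal was not ranked. Signals are given for 4 months first and 28 months second. Of 18194 genes named by a probe set, 12993 were above the floor on at least 1 of the 4 arrays and were tested. The 2 ages served as replicates of a segment, and p-values measure the spread that segment and age leave among the 6 intestinal arrays, jejunum included, so that small number of arrays limits the precision. A gene was called higher in a segment when the limma fit gave an adjusted p below 0.05, the mean difference reached 2-fold and both ages had the same sign. Differences are log2 of the ileum signal minus log2 of the distal colon signal, after raising low signals to the floor. Where 1 array was left out, the difference came from the other age alone, and the rule on the sign at both ages no longer applied. Folds are lower bounds, written "at least", where 1 or both arrays of the dimmer segment lay at the floor. Standard errors (SE) and adjusted p come from the limma fit on signals without the floor.

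The labels were checked first against marker genes. All 5 ileal markers were higher in ileum, and 6 of the 7 measured distal colon markers were higher in distal colon, the exception being Hoxa13, whose signals in distal colon were 108 and 136 units, near the floor. These markers are also members of gene groups below, so their calls there are not separate from this check. The ileum array of 4 months stood apart. Over all 45101 probe sets it correlated with the 4-month jejunum (r = 0.9865) as closely as with the 28-month ileum (r = 0.9870), whereas the 28-month ileum correlated with the 28-month jejunum at 0.9749. It carried 6 markers of the upper small intestine that were far lower on the 28-month ileum array: lactase (Lct) gave 14054 against 92.1 units, the fatty acid binding protein Fabp1 31032 against 1017, and the hormone gene Gip 6588 against 229. Of these 6, 3 were called higher in ileum with all arrays, 6 without the 28-month ileum array and 0 without the 4-month distal colon array. The summed signal of the 6 was 58450 and 1718 units in ileum and 318.5 and 294.5 in distal colon. Their part in the results below was not tested. Without the 4-month ileum array, 647 genes were higher in ileum and 654 in distal colon. The distal colon arrays of both ages correlated at 0.9907.

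In all, 668 genes were higher in ileum, which is 5.14% of those tested, and 834 were higher in distal colon, which is 6.42%. The counts of each gene group below stand beside these shares, and no group was tested against them. At single ages, with no test, 6.9% of genes were 2-fold or more higher in ileum and 9.54% in distal colon at 4 months, against 5.04% and 5.11% at 28 months. The ileum held more of the extreme values. At least 10-fold separated the segments for 101 genes higher in ileum and for 33 higher in distal colon, bounds included. Of the genes called, 93 higher in ileum lay at the floor on both distal colon arrays, and 87 higher in distal colon lay at the floor on both ileum arrays. The median difference among genes higher in ileum was 1.83 at 4 months and 1.51 at 28 months, and among genes higher in distal colon -1.65 and -1.21. Over all genes tested the median was -0.06. Where a called gene had several measured probe sets, all of them gave the same direction at 1.5-fold or more for 161 of 232 genes higher in ileum and for 203 of 392 higher in distal colon, and each gene is given by its brightest probe set. In bulk tissue a lower signal can stand for fewer cells of a type or for less RNA per cell, which cannot be told apart here.

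**Figure D1:**
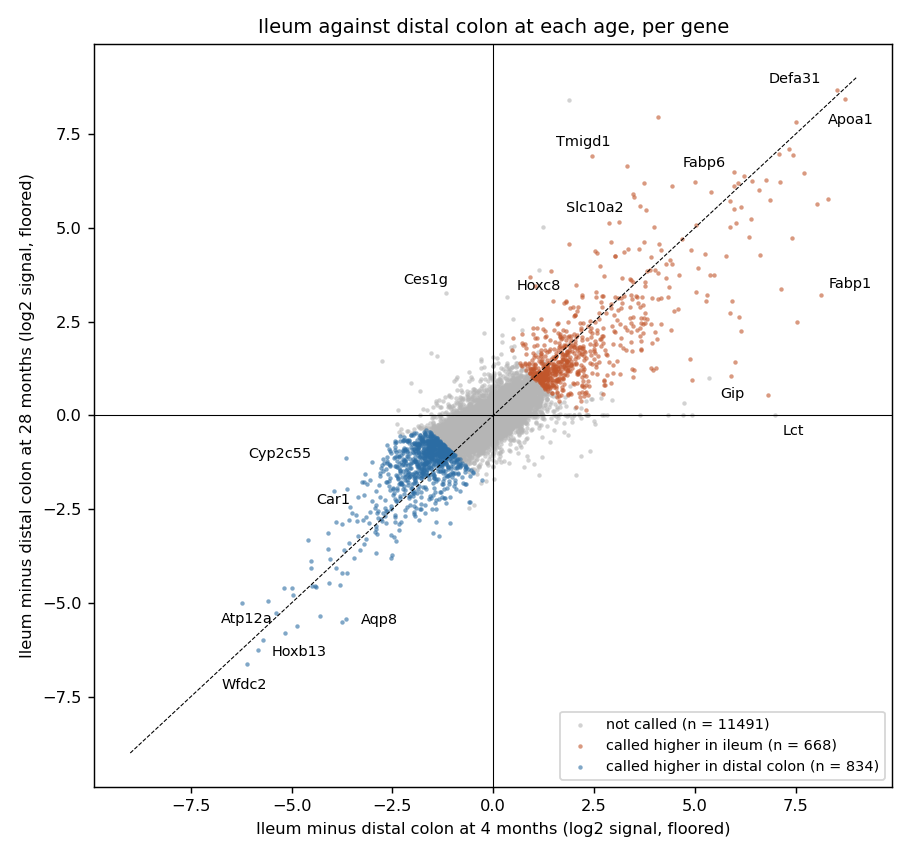
Difference between ileum and distal colon at 4 months (horizontal axis) and 28 months (vertical axis), log2 signal after the floor, 1 point per gene tested, coloured by call (668 higher in ileum, 834 higher in distal colon). Fabp6 and Hoxb13 lie near the dashed line of equal differences, whereas Lct, Gip and Fabp1 lie far below it, with differences of 6.99, 5.89 and 8.13 at 4 months and 0.00, 1.05 and 3.20 at 28 months.

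The genes described next were among the 12 with the largest differences toward ileum after the floor, which leaves the order of bounds unknown. The defensin gene Defa31, whose peptide kills bacteria in the crypt, gave 53402 and 58582 units in ileum and 144 and 144 in distal colon, a 388-fold difference (limma, adjusted p = 0.00944). Apolipoprotein A-I (Apoa1), the chief protein of high-density lipoprotein, gave 47169.9 and 38585 units in ileum and 42.8 and 61.3 in distal colon, at least 385-fold apart (adjusted p = 6.63e-05). The galactose-binding lectin Lgals2 gave 28486 and 28114 units in ileum and 176 and 204 in distal colon, 149-fold apart with an SE of 0.11 log2 units (adjusted p = 4.80e-05). In each case both ileum arrays lay above both distal colon arrays by 2 orders of magnitude, which is largely fixed by choosing the largest differences. The ribonuclease Ang4 followed at 19226 and 13597 units in ileum and 107 and 92.3 in distal colon, and the crypt defensin Defa39 at 27006 and 11988 units in ileum and 129 and 135 in distal colon. Intelectin 1 (Itln1), a lectin that binds microbial sugars, gave 24479 and 17603 units in ileum and 179 and 141 in distal colon. Ang4 was at least 146-fold, Defa39 136-fold and Itln1 131-fold higher in ileum. Olfactomedin 4 (Olfm4), a marker of small-bowel crypt base cells, gave 9431 and 8417 units in ileum and 25.3 and 22.2 in distal colon, and the proline-rich acidic protein Prap1 18440.1 and 8250.4 units in ileum and 133 and 62.3 in distal colon. Olfm4 was at least 80.5-fold higher in ileum and Prap1 at least 102-fold. Defensin probe sets can read near-identical copies, so single defensin genes are uncertain. The call of Defa31 was lost without the 4-month distal colon array (adjusted p = 0.0573).

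The next genes were among the 12 with the largest differences toward distal colon. Wfdc2, a secreted protease inhibitor, gave 7662 and 10871 units in distal colon and 109 and 110.2 in ileum, so the distal colon was at least 82.5-fold higher (adjusted p = 6.63e-05). Lactoperoxidase (Lpo), which makes antimicrobial oxidants, gave 5794 and 7064 units in distal colon and 88.7 and 88.9 in ileum and was at least 57.8-fold higher in distal colon (adjusted p = 6.63e-05). Syncollin (Sycn), a secretory granule protein best known from the pancreas, gave 27058 and 32982 units in distal colon and 362 and 1038 in ileum, 48.7-fold apart. Neither segment's arrays overlapped the other's for any of these genes, which is largely fixed by choosing the largest differences. The Na,K-ATPase regulator Fxyd4 gave 3991 and 6209 units in distal colon and 102 and 81.1 in ileum, at least 45-fold higher in distal colon. Thrombospondin 4 (Thbs4), a matrix protein, gave 5342 and 7411 units in distal colon and 102 and 242 in ileum, at least 38.4-fold apart. Hao2, a peroxisomal hydroxyacid oxidase, and Sval1, a secreted protein of the seminal vesicle antigen type, were 27.8-fold and 29.1-fold higher in distal colon, with ileum signals of 272 and 479.9 units for Hao2 and of 433 and 547 for Sval1. Jejunum lay lower still for both, at 38.2 and 30.7 units for Hao2 and at 86.0 and 86.3 for Sval1, and both exceeded jejunum in ileum in the same fit (ileum minus jejunum 3.40, adjusted p = 0.0119, and 2.50, adjusted p = 0.00302).

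Bile acid handling belonged to the ileum. Of 11 measured genes, 9 were higher in ileum and none in distal colon, with a median difference of 2.51, which was 1.58 without either 28-month array and 3.68 without either 4-month array. These 9 include the 5 ileal markers used above to check the labels, namely Fabp6, Slc10a2, Slc51a, Slc51b and Fgf15. The apical bile acid carrier Slc10a2, which takes bile acids up from the lumen, gave 1401 and 3856 units in ileum and 190.5 and 45.5 in distal colon, a difference of at least 16-fold (SE 0.77, adjusted p = 0.0111). The cytosolic bile acid binding protein Fabp6 gave 20178 and 35830.5 units in ileum and 272 and 429 in distal colon, 78.7-fold apart (SE 0.19, adjusted p = 0.000104). The basolateral exporter is a pair of subunits: Slc51a gave 6163 and 11137 units in ileum and 614 and 63.6 in distal colon, and Slc51b 3907 and 7237 units in ileum and 517 and 294 in distal colon. They were at least 31.8-fold and 13.6-fold higher in ileum. All 4 transport genes were brighter in ileum at 28 months than at 4 months, and Slc10a2, Slc51a and Slc51b were dimmer in distal colon at 28 months. Jejunum was at the floor for Slc10a2, at 22.6 and 24.5 units, and for Fabp6, at 46.4 and 52.1, whereas Slc51a reached 2269 and 1498 units there. The hormone Fgf15, which ileal cells release in answer to bile acids to restrain their synthesis in liver, gave 209.6 and 1419 units in ileum and 60.6 and 50.2 in distal colon. Its fold was at least 4.93-fold (adjusted p = 0.0253), and most of it came from the 28-month ileum. Without the 28-month ileum array the Fgf15 difference fell to 0.92, under the 2-fold threshold, and it lost the test without the 4-month distal colon array (adjusted p = 0.0522) and without the 28-month one (adjusted p = 0.105). The canalicular pump Abcc2 was at least 8.72-fold higher in ileum. Abcc3, a basolateral exporter of bile acid conjugates, was not called, at 1437 and 1475 units in ileum and 2547 and 2101 in distal colon, and the glucuronosyltransferase Ugt2b5 was not called either (adjusted p = 0.0861), with distal colon at 729 and 21.8 units.

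Digestion at the brush border followed the same direction. Of 14 measured enzymes and anchors, 11 were higher in ileum, none in distal colon, and the median difference was 3.50. Aminopeptidase N (Anpep), which trims peptides, gave 6938 and 7707 units in ileum and 86.1 and 92.2 in distal colon, at least 66.1-fold apart (adjusted p = 0.000877). The peptidase Naaladl1 gave 12914 and 21784 units in ileum and 405 and 293 in distal colon, and the endopeptidase neprilysin (Mme) 7566 and 3430.1 units in ileum and 138 and 182 in distal colon. Their folds were 48.7-fold and 32.2-fold. Naaladl1 was at its highest in the 28-month ileum and Mme in the 4-month ileum. Alkaline phosphatase (Alpi), an enterocyte enzyme that detoxifies bacterial lipopolysaccharide, gave 12031 and 5315 units in ileum and 972 and 82.4 in distal colon. Trehalase (Treh), which splits the sugar trehalose, gave 4337 and 1027 units in ileum and 34.2 and 35.2 in distal colon, and Enpep, an acidic aminopeptidase, 21604 and 24214 units in ileum and 1623 and 977 in distal colon. These were at least 24.4-fold, at least 19.1-fold and 18.2-fold higher in ileum. Of the 3 not called, Lct differed by 6.99 at 4 months and 0.00 at 28 months, the phosphodiesterase Enpp3 by 5.35 and 1.00, and the meprin subunit Mep1a by 0.71 and 2.29. Enpp3 and Lct were far above the floor in jejunum at both ages, and Mep1a, at 949 and 433 units, was lower in jejunum than in ileum. Without the 4-month distal colon array, the call of Naaladl1 was lost (adjusted p = 0.0519).

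Carriers for sugars and amino acids were higher in ileum for 14 of 15 measured genes, with a median difference of 3.15. The neutral amino acid carrier Slc6a19 gave 7386 and 8035 units in ileum and 60.3 and 63.9 in distal colon, at least 69.6-fold apart (adjusted p = 0.000107). The cystine and dibasic amino acid carrier is built from Slc3a1 and Slc7a9: Slc3a1 gave 5494 and 6313 units in ileum and 492 and 89.0 in distal colon, and Slc7a9 9630.1 and 9812 units in ileum and 375 and 374 in distal colon. Both subunits were higher in ileum on every array, by at least 25.2-fold for Slc3a1 and 25.9-fold for Slc7a9. The glucose carrier Slc2a2, by which sugar leaves the cell for the blood, gave 6447 and 728 units in ileum and 29.6 and 35.3 in distal colon. It was called (at least 19.6-fold, adjusted p = 0.00572), although the 28-month ileum lay at about an order of magnitude below the 4-month ileum and below jejunum, at 9562 and 8408 units. The large neutral amino acid exporter Slc43a2 and the aromatic amino acid carrier Slc16a10 were 10.7-fold and 10.1-fold higher in ileum. The proton-coupled amino acid carrier Slc36a1 was the 1 member not called, at 1219 and 547 units in ileum and 1379 and 1852 in distal colon.

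Fat absorption and lipoprotein assembly gave 18 of 22 genes higher in ileum, with none higher in distal colon and a median difference of 3.72. Microsomal triglyceride transfer protein (Mttp), which loads fat onto the nascent chylomicron, gave 12961 and 5936 units in ileum and 48.3 and 62.0 in distal colon, at least 79.2-fold apart (adjusted p = 0.000296). Apoa4 gave 35041 and 5978 units in ileum and 59.3 and 63.0 in distal colon, and Apoc3 28894 and 5454 units in ileum and 44.9 and 43.7 in distal colon. These 2 apolipoproteins of chylomicrons, which lie beside Apoa1 on chromosome 9, were at least 131-fold and at least 113-fold higher in ileum, and the run Apoa1, Apoc3 and Apoa4 was unbroken by any other tested gene. The acyltransferase Mogat2, which rebuilds triglyceride from monoglyceride, gave 7805 and 5185 units in ileum and 109.5 and 103 in distal colon, at least 57.5-fold apart. Fabp1 was called as well (at least 50.8-fold, adjusted p = 0.011), with 31032 units in ileum at 4 months and 1017 at 28 months, and the call was lost without the 4-month distal colon array (adjusted p = 0.0639). The lipid droplet coat Plin2, the cholesterol pump Abca1 and the fatty acid receptor Cd36 were not called, with differences of -0.21, -0.42 and 1.11.

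**Figure D2:**
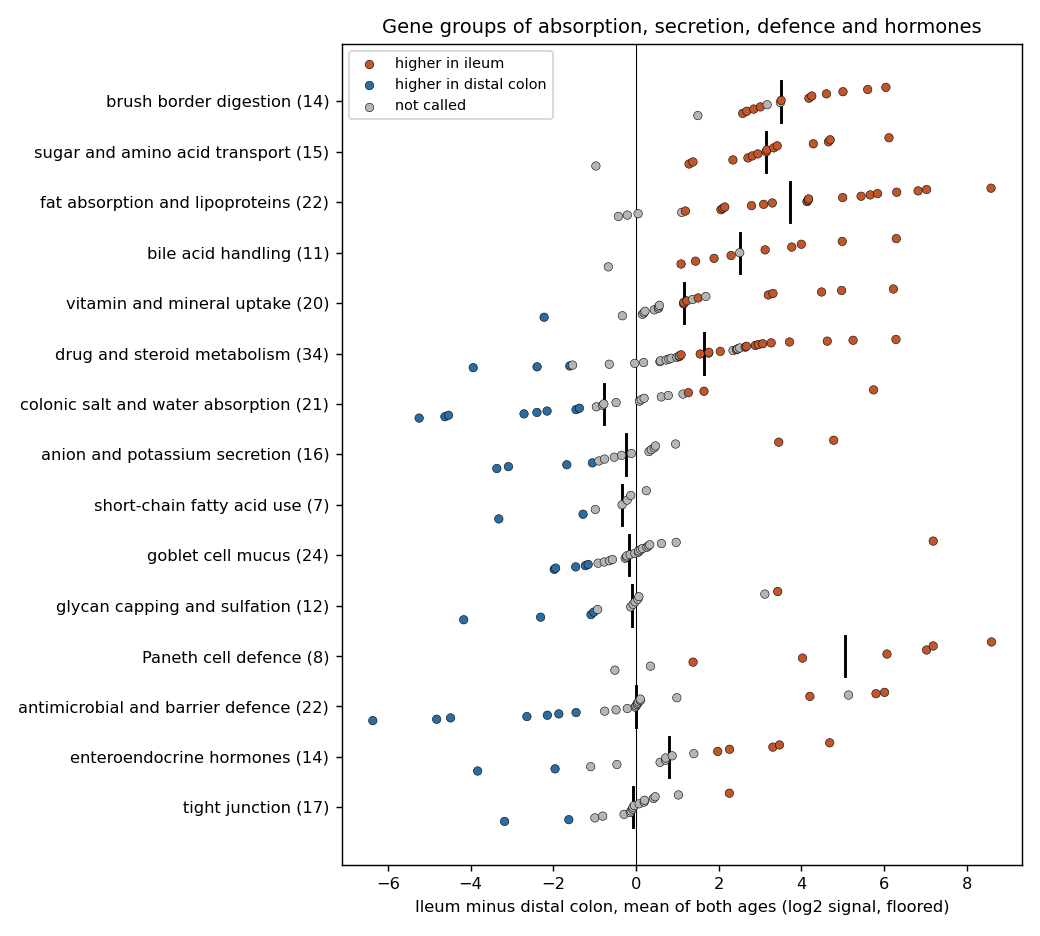
Mean difference between ileum and distal colon (log2 signal after the floor, both ages averaged) for every tested member of 15 gene groups, with the number of members in brackets, points coloured by call and a black bar at each group's median. Digestion, carriers, fat and bile acids lie to the right with medians from 2.51 to 3.72, whereas salt and water absorption spans both sides around a median of -0.78.

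Promoter sequences of RefSeq on build GRCm38.p6, from 250 bases before to 50 after a transcript's start, were searched on both strands for short motifs. Promoters of 1 chromosome were left out of the search. The set of motifs shown was picked after a longer set had been counted. The letters CAAAGTCCA, a form of the site of the nuclear receptors Hnf4a and Hnf4g, stood in 156 of 32851 promoters searched (0.475%). They stood in 15 of 519 genes higher in ileum that had a promoter among those searched (2.89%), in 4 of 633 higher in distal colon (0.632%) and in 49 of 9288 not called (0.528%). The palindromic HNF1 motif, a form of the site of Hnf1 factors, stood in 0.399% of all promoters, in 1.35% of genes higher in ileum and in 0.790% of genes higher in distal colon. The GATA letters AGATAA stood in 12.1%, 7.90% and 7.97% of genes higher in ileum, higher in distal colon and not called, and the CDX letters TTTATNG in 11.8%, 10.9% and 8.44%. No motif is contained in another. A match is a description of the letters and not of a factor on the promoter. The 3 absorptive genes below carry the Hnf4 letters, shown because carrier and enzyme genes were among the largest ileal differences, and a further pair carries the Hnf1 letters, 1 from each segment's genes. Capitals mark the motif, and the lines run 5' to 3' over the 250 bases before the start. Slc3a1 is at chr17:85028097-85028346 (plus strand), Treh at chr9:44672983-44673232 (plus strand), Alpi at chr1:87101607-87101856 (minus strand), Slc10a2 at chr8:5105288-5105537 (minus strand) and Slc26a3 at chr12:31437969-31438218 (plus strand).
Slc3a1: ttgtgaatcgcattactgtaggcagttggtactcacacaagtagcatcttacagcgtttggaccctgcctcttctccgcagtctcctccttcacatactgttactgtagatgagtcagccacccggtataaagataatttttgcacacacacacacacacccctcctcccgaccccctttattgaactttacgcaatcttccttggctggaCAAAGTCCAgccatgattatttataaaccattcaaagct
Treh: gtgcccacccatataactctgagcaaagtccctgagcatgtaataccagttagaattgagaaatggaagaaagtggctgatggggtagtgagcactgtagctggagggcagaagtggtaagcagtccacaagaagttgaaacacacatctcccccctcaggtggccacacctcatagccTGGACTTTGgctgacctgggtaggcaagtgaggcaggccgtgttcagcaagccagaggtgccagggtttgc
Alpi: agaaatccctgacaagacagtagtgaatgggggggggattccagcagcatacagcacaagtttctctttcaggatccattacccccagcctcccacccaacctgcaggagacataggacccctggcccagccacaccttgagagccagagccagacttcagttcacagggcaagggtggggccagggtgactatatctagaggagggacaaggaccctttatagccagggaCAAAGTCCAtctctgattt
Slc10a2: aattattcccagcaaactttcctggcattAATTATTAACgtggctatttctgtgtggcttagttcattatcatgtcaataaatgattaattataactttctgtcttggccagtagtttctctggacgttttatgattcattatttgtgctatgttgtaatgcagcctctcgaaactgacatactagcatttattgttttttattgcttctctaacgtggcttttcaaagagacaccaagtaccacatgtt
Slc26a3: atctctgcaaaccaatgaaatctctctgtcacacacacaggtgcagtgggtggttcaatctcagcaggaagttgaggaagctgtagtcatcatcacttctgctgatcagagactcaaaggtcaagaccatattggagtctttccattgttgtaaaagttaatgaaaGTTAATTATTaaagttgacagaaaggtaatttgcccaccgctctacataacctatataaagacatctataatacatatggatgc
Counted from the start, the first base of the motif lies at -39 in Slc3a1, -71 in Treh, -19 in Alpi, -221 in Slc10a2 and -84 in Slc26a3. In Treh and Slc10a2 it is read on the opposite strand. Hnf4g itself was higher in ileum and Hnf4a was not called, as given with the transcription factors below.

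Vitamin and mineral uptake was divided. Of 20 measured genes, 9 were higher in ileum, 1 in distal colon and 10 were not called, with a median difference of 1.16. Without the 4-month distal colon array the median was 0.58 and 6 genes were higher in ileum. Cubilin (Cubn), the ileal receptor for cobalamin bound to intrinsic factor, gave 8281 and 9856 units in ileum and 131 and 50.8 in distal colon, and its partner amnionless (Amn) 5494 and 4964 units in ileum and 510.2 and 540.5 in distal colon. They were at least 75-fold and 9.94-fold higher in ileum. In jejunum Cubn lay at 3631 units at 4 months and 73.1 at 28 months, so the jejunal arrays differed more than the ileal ones. The sulfate carrier Slc13a1 gave 4067 and 8173 units in ileum and 304 and 44.9 in distal colon, the retinol binding protein Rbp2 6716 and 1355 units in ileum and 100.0 and 163 in distal colon and the phosphate carrier Slc34a2 3629 and 5914 units in ileum and 386 and 657 in distal colon. All 3 were higher in ileum, by at least 31.4-fold, at least 22.5-fold and 9.2-fold. The iron exporter ferroportin (Slc40a1) was the member higher in distal colon, at 7893 and 6437 units in distal colon and 1894 and 1232 in ileum, 4.67-fold apart (adjusted p = 0.00159). Jejunum exceeded both for ferroportin, at 9416 and 10048 units, so the ileum was the low point of the 3 segments (ileum minus jejunum -2.67, adjusted p = 0.00666). The vitamin D receptor (Vdr) was not called, at 4119 and 3641 units in ileum and 3549 and 3120.3 in distal colon. The calls of Cubn and Slc34a2 were lost without the 4-month distal colon array (adjusted p = 0.0925 and 0.184).

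Enzymes of drug and steroid metabolism were called on both sides, with 16 of 34 measured genes higher in ileum, 3 in distal colon and a median difference of 1.66. The cytochromes Cyp3a25 and Cyp3a11, which oxidise steroids and many drugs, gave 10617 and 7068 units in ileum and 63.4 and 28.4 in distal colon for Cyp3a25 and 15664 and 1135 units in ileum and 30.1 and 30.3 in distal colon for Cyp3a11. They were at least 78.3-fold and at least 38.1-fold higher in ileum. Cyp4f14, a fatty acid hydroxylase, gave 10547 and 8302 units in ileum and 763 and 188 in distal colon, and the sulfotransferase Sult2b1 4418 and 4128 units in ileum and 405 and 483 in distal colon, with folds of 24.7-fold and 9.65-fold. Another sulfotransferase ran the other way: Sult1a1, which acts on phenols, gave 8254 and 9404 units in distal colon and 501 and 662 in ileum and was 15.3-fold higher in distal colon (adjusted p = 0.000152). Cyp2c55 was also higher in distal colon, at 9286 and 1919 units in distal colon and 738 and 877 in ileum, with differences of -3.65 at 4 months and -1.13 at 28 months. A run of 5 neighbouring tested genes of the Cyp2d family on chromosome 15, Cyp2d10, Cyp2d9, Cyp2d12, Cyp2d34 and Cyp2d13, was higher in distal colon throughout, but another member, Cyp2d26, was 5.4-fold higher in ileum, at 9163 and 5654 units in ileum and 2329.7 and 764 in distal colon, and probe sets of such near copies may read each other's transcripts. The alcohol dehydrogenase Adh6a was called higher in ileum from 7058 and 299 units in ileum and 70.1 and 75.9 in distal colon, and Adh1 was not called, at 15987 and 4758 units in ileum and 24433 and 26117 in distal colon. The calls of Cyp2c55 and Adh6a were lost without the 4-month distal colon array (adjusted p = 0.106 and 0.201).

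Salt and water absorption leaned toward the distal colon. Of 21 measured genes, 8 were higher in distal colon, 3 in ileum and 10 were not called, and the median difference was -0.78, or -0.47 without either 28-month array. The potassium pump Atp12a, which exchanges protons for luminal potassium, gave 3236 and 5442 units in distal colon and 28.5 and 25.7 in ileum, so distal colon was at least 37.9-fold higher (adjusted p = 0.000161). The water channel Aqp8 gave 2479 and 4737 units in distal colon and 197 and 85.0 in ileum, at least 23.2-fold apart (adjusted p = 0.00338). A pair of carbonic anhydrases, which feed the proton and bicarbonate exchangers, were higher in distal colon: Car2 gave 13919 and 16770.3 units in distal colon and 1037 and 371 in ileum and Car1 22226 and 6485 units in distal colon and 3049 and 1107 in ileum. Their folds were 24.6-fold and 6.54-fold. Along the bowel these 2 ran apart, since ileum was below jejunum for Car2 (ileum minus jejunum -3.29, adjusted p = 0.0409) and above it for Car1 (4.99, adjusted p = 0.00809). Car4 was not called, at 3384 and 4274 units in ileum and 3521 and 3452 in distal colon. The chloride and bicarbonate exchangers were divided, with Slc26a3 at 11775 and 12160.0 units in distal colon and 4926 and 4365 in ileum and Slc26a6 at 8144 and 5495 units in ileum and 129 and 120.3 in distal colon. Slc26a3 was 2.58-fold higher in distal colon and Slc26a6 53.7-fold higher in ileum. Hsd11b2, which shields the aldosterone receptor from glucocorticoids, gave 3593 and 4702 units in distal colon and 431 and 1415 in ileum, 5.26-fold apart. The receptor itself, Nr3c2, reached -0.96 and was just short of 2-fold (adjusted p = 0.0125), and the sodium pump subunit Atp1b1 was not called, at 22069 and 19292 units in ileum and 17472 and 18548 in distal colon. Of the sodium channel subunits, Scnn1g was higher in distal colon (-2.15), and Scnn1a and Scnn1b were not called (-0.78 and -0.81). The kinase Sgk1 ran the other way and was higher in ileum (1.27). Without the 28-month ileum array 5 genes of the group were higher in ileum. Leaving out the 4-month distal colon array ended the call of Hsd11b2 (adjusted p = 0.0524).

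Genes of fluid secretion lay on both sides. Of 16 measured, 2 were higher in ileum and 4 in distal colon, with a median of -0.23, or -0.14 without either 4-month array. Over all genes tested, 5.14% were higher in ileum and 6.42% in distal colon. Uroguanylin (Guca2b), a luminal peptide that switches on secretion, gave 26161 and 16217 units in ileum and 683 and 819 in distal colon, 27.5-fold higher in ileum (adjusted p = 0.000585). Guanylin (Guca2a), the related peptide, was not called, at 19025 and 26295 units in ileum and 16193 and 16061 in distal colon. The kinase Prkg2, which acts downstream of both, gave 3299.6 and 2239 units in ileum and 556 and 46.4 in distal colon, at least 11-fold higher in ileum. Among channels, the bicarbonate-permeable anion channel Best2 gave 1800.0 and 2679 units in distal colon and 121 and 374 in ileum and the calcium-activated chloride channel Ano1 6914 and 7783 units in distal colon and 670.0 and 1116 in ileum. Distal colon was higher by 10.3-fold for Best2 and 8.48-fold for Ano1. The potassium channel Kcnma1, known for potassium secretion in the colon, gave 1072 and 858 units in distal colon and 199 and 454 in ileum, and the channel subunit Kcne3 3667 and 3969.6 units in distal colon and 1616 and 2089 in ileum. Kcnma1 was 3.19-fold and Kcne3 2.08-fold higher in distal colon, and without either 4-month array the differences were -0.92 for Kcnma1 and -0.93 for Kcne3, under 2-fold, which left 2 genes of the group higher in distal colon. The chloride-loading cotransporter Slc12a2 and the sulfate carrier Slc26a2 were not called, with differences of -0.52 and -0.90.

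Use of short-chain fatty acids, which microbes release in the colon, gave 2 of 7 measured genes higher in distal colon and none in ileum, with a median of -0.34. The acyl-CoA synthetase Acsm3, which activates medium-chain and butyric acids, gave 3005 and 3991 units in distal colon and 225 and 535 in ileum, 9.97-fold apart (adjusted p = 0.00102). The monocarboxylate carrier Slc16a1 gave 8029 and 6451 units in distal colon and 2804 and 3134 in ileum, 2.43-fold higher in distal colon. The sodium-coupled carrier Slc5a8 was not called, at 4531 and 3945 units in distal colon and 1616 and 2834 in ileum, with adjusted p = 0.174, yet ileum was far above jejunum, at 84.1 and 31.7 units (ileum minus jejunum 5.37, adjusted p = 0.0177).

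**Figure D3:**
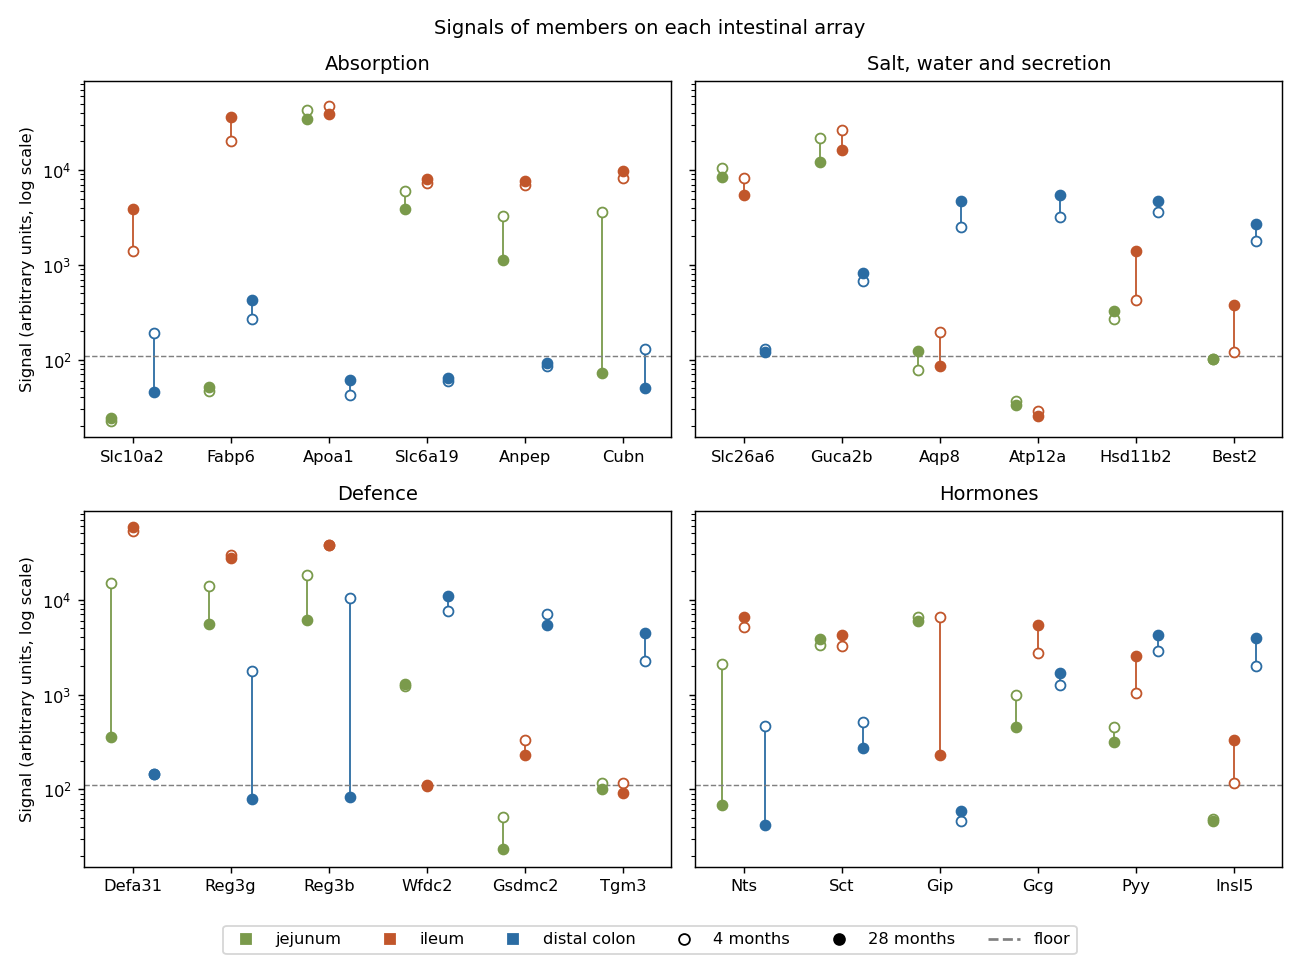
Signal (arbitrary units, log axis) of 24 genes of absorption, salt, water and secretion, defence and hormones on the jejunum, ileum and distal colon arrays, open circles for 4 months and filled circles for 28 months, with the floor dashed. Reg3b lies at 10366 units in distal colon at 4 months and 82.7 at 28 months, whereas Wfdc2 lies at 7662 and 10871 units there.

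Most mucus genes were not called. Of 24 measured goblet cell genes, 18 were not, 5 were higher in distal colon and 1, Ang4, was higher in ileum, with a median difference of -0.18, which was -0.03 without either 4-month array and -0.44 without either 28-month array. The gel-forming mucin Muc2 gave 15743 and 22012 units in ileum and 22501 and 16013 in distal colon, and the trefoil peptide Tff3 32689.7 and 34349 units in ileum and 23759.7 and 29733 in distal colon. The lectin Zg16, which clumps Gram-positive bacteria, gave 38667 and 39822 units in ileum and 39352 and 35896 in distal colon. For Muc2 and Zg16 the arrays of the segments overlapped, and for Tff3 ileum lay slightly above distal colon on both ages without passing the test (adjusted p = 0.121). The kallikrein Klk1 gave 17049 and 23932 units in distal colon and 3950.5 and 6666 in ileum, and Creb3l1, a secretory pathway factor, 1129 and 1542 units in distal colon and 262 and 450.2 in ileum. They were 3.94-fold and 3.84-fold higher in distal colon. The stress sensor Ern2, known from mucous epithelia, and Bcas1, a goblet cell gene, were 2.33-fold and 2.75-fold higher there, and Muc1, a membrane mucin, at least 2.23-fold. The measured probe sets of Klk1 and of Bcas1 ranged from -1.98 to 0.35 and from -1.46 to -0.00, so both genes are uncertain. Without the 4-month distal colon array Ern2 and Bcas1 lost their calls, which left 3 genes of the group higher there (adjusted p = 0.0715 and 0.0534), and without the 28-month ileum array the Muc1 difference was -0.91.

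Enzymes that finish mucin sugars gave calls on both sides. Of 12 measured, 4 were higher in distal colon, 1 in ileum and 7 were not called. The galactosyltransferase B3galt5 gave 2737 and 2562 units in distal colon and 196 and 94.8 in ileum, at least 18-fold apart (adjusted p = 0.000578), and the fucosyltransferase Fut2, which adds the fucose of secretor antigens, gave 803 and 856 units in distal colon and 209 and 134 in ileum, 4.95-fold apart. Against these, the ganglioside synthase B4galnt1 gave 2571 and 2179 units in ileum and 283 and 171 in distal colon and was 10.8-fold higher in ileum (adjusted p = 0.000665). B4galnt2, which adds a terminal sugar to mucins, just missed the test, at 13518 and 14346 units in ileum and 5781 and 445 in distal colon (adjusted p = 0.0501), and its distal colon arrays lay far apart. The fucosyltransferase Fut4 and the sialyltransferase St3gal6 were 2.02-fold and 2.12-fold higher in distal colon, with differences of -0.77 and -0.82 at 4 months and of -1.27 and -1.35 at 28 months, and neither passed 2-fold without either 28-month array, which left 2 genes of the group higher in distal colon. The measured probe sets of St3gal6 ranged from -1.43 to 0.04. The sulfate donor enzyme Papss2 was not called, at 8403 and 4642 units in ileum and 6892 and 5830.1 in distal colon, with jejunum well above both at 22137 and 25207 units.

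Paneth cell defence had a median difference of 5.05, with 6 of 8 measured genes higher in ileum. The list held 22 genes, of which 12 had no probe set of their own among those used and were not analysed here, most of them defensins, and 2 lay below the floor. Beside Defa31, Ang4 and Itln1, the phospholipase Pla2g2a, which attacks bacterial membranes, gave 22268 and 18333 units in ileum and 132 and 686 in distal colon, 67.2-fold apart (adjusted p = 0.00306). The protease Mmp7, which matures the defensins, gave 3377 and 3504 units in ileum and 275 and 161 in distal colon, 16.3-fold apart (adjusted p = 0.000877). Lysozyme (Lyz1) gave 42884 and 37497 units in ileum and 14821 and 15974 in distal colon, 2.61-fold apart, and its distal colon signal was far above the floor. Its probe sets can read the macrophage lysozyme Lyz2, which was not called, at 8969 and 8215 units in ileum and 6754 and 8092 in distal colon. The pentraxin Mptx1 was not called, at 2742 and 1849 units in ileum and 2471 and 4157 in distal colon, nor was Sntb1, at 222 and 248 units in ileum and 220.1 and 154 in distal colon.

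Among 22 other antimicrobial and barrier genes, 7 were higher in distal colon, 3 in ileum and 12 were not called. The 3 higher in ileum were regenerating-family lectins, which lie as neighbours on chromosome 6: Reg3g gave 29634 and 27317 units in ileum and 1751 and 78.3 in distal colon, Reg3a 9295 and 4132 units in ileum and 38.0 and 38.9 in distal colon and Reg1 7884 and 530.1 units in ileum and 44.4 and 40.3 in distal colon. Their folds were at least 64.6-fold, at least 56-fold and at least 18.5-fold. The signals within a segment differed widely between ages, Reg1 in ileum and Reg3g in distal colon both being lower at 28 months. Reg3b, a lectin against Gram-negative bacteria, gave 37929 and 37729.6 units in ileum and 10366 and 82.7 in distal colon and had an adjusted p of 0.05, just above the threshold. On the distal colon side, Tgm3, a cross-linking transglutaminase, gave 2275 and 4498 units in distal colon and 116 and 91.7 in ileum, at least 28.3-fold apart (adjusted p = 0.000919). The pore-forming Gsdmc2 gave 7004 and 5423 units in distal colon and 329.5 and 229.7 in ileum, 22.4-fold apart (adjusted p = 0.000297). Lypd8, which keeps flagellated bacteria off the colon surface, was higher in distal colon on both ages, at 31905 and 31002 units in distal colon and 17969 and 19261 in ileum, and passed the test (adjusted p = 0.00469) but at -0.76 fell short of 2-fold. The antibody carrier Pigr was not called, at 21089.7 and 20256 units in ileum and 22628 and 18899.7 in distal colon, with the arrays of the segments overlapping. The call of Reg1 was lost without the 4-month distal colon array (adjusted p = 0.0715).

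Hormone genes differed by segment, with 5 of 14 measured higher in ileum, 2 in distal colon and 7 not called (median difference 0.80). Neurotensin (Nts), which slows the gut after fat, gave 5124 and 6628 units in ileum and 463 and 42.2 in distal colon, at least 25.8-fold apart (adjusted p = 0.023). Secretin (Sct), which calls forth bicarbonate, gave 3209 and 4273 units in ileum and 509.8 and 273 in distal colon, 9.93-fold apart (adjusted p = 0.0025). Somatostatin (Sst), a brake on other hormone cells, gave 1876 and 1479.8 units in ileum and 519 and 345 in distal colon, 3.94-fold apart (adjusted p = 0.00083). Every ileum array exceeded every distal colon array for these 3, which were picked as called genes. Cholecystokinin (Cck) was at least 4.8-fold higher in ileum, with ileum at 929 and 304 units, and Gip at least 11.1-fold, with nearly all of its ileum signal on the 4-month array. Insulin-like peptide 5 (Insl5), a colonic hormone linked to appetite, gave 1998 and 3939.9 units in distal colon and 117 and 332 in ileum, 14.2-fold higher in distal colon (adjusted p = 0.00232). Proglucagon (Gcg), the source of glucagon-like peptides, gave 2708 and 5474 units in ileum and 1264 and 1685 in distal colon, and peptide YY (Pyy), the ileal brake hormone often made by the same cells, 1041 and 2568 units in ileum and 2879 and 4236 in distal colon. Gcg was above distal colon in ileum at both ages and Pyy below it at both ages, yet neither passed the test (adjusted p = 0.0778 and 0.0905). The calls of Nts and Gip were lost without the 4-month distal colon array (adjusted p = 0.0804 and 0.21), which left 3 hormone genes higher in ileum, and that of Nts also without the 28-month one (adjusted p = 0.091).

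General markers of hormone cells were mostly not called. Of 14 measured genes of the hormone cell machinery and its nutrient receptors, 12 were not called, 2 were higher in distal colon and none in ileum. Over all genes tested, 6.42% were higher in distal colon and 5.14% in ileum. The granule proteins chromogranin A (Chga) and chromogranin B (Chgb) gave 1084 and 964 units in ileum and 1105 and 1094 in distal colon for Chga and 4603 and 4179.8 units in ileum and 5447 and 5212 in distal colon for Chgb. Isl1, a factor of several hormone cell types, was 4.1-fold higher in distal colon, at 690.1 and 366 units in distal colon and 134 and 113 in ileum, and the long-chain fatty acid receptor Ffar4 2.7-fold, at 472 and 565 units in distal colon and 149 and 245 in ileum. Leaving out the 4-month distal colon array ended the call of Ffar4 (adjusted p = 0.0668).

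Homeobox genes of the Hox clusters, which mark position along the body axis, were mostly not called. Of 39 genes of the Hox clusters listed, 33 had a probe set and 23 were measured, with 5 higher in distal colon, 1 in ileum and 17 not called. The 5 were among 10 measured genes numbered from 9 to 13 within their clusters. The other 5 of these were not called, with differences of 0.33 for Hoxb9, 0.66 for Hoxc9, -0.90 for Hoxd9, -0.43 for Hoxa11 and -0.15 for Hoxa13. Hoxb13 gave 6355 and 8492 units in distal colon and 42.7 and 42.6 in ileum, at least 66.4-fold apart (adjusted p = 6.96e-05), and Hoxd13 gave 4646 and 4280.5 units in distal colon and 44.1 and 37.0 in ileum, at least 40.3-fold apart (adjusted p = 6.63e-05). Hoxa9 gave 2319 and 2639.5 units in distal colon and 50.4 and 80.4 in ileum, and the paralogues Hoxa10 and Hoxd10 gave 585 and 543 units in distal colon and 31.0 and 32.3 in ileum for Hoxa10 and 716 and 714 units in distal colon and 31.8 and 27.0 in ileum for Hoxd10. The 5 called genes were at the floor in ileum and in jejunum. The gene higher in ileum was Hoxc8, at 308 and 915 units in ileum and 26.4 and 24.1 in distal colon (adjusted p = 0.00371), and its jejunum signals of 34.3 and 24.9 units were at the floor too, so it was above the floor in ileum alone of the 3 segments (ileum minus jejunum 4.19, adjusted p = 0.0409). Anterior genes such as Hoxa5 and Hoxb2 were not called, with differences of 0.55 and 0.34, and probe sets of Hoxa5 disagreed in sign. Without the 4-month ileum array 6 Hox genes were higher in ileum, and without the 4-month distal colon array 4. Hoxb3 changed sides between ages, from -1.55 at 4 months to 1.67 at 28 months.

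**Figure D4:**
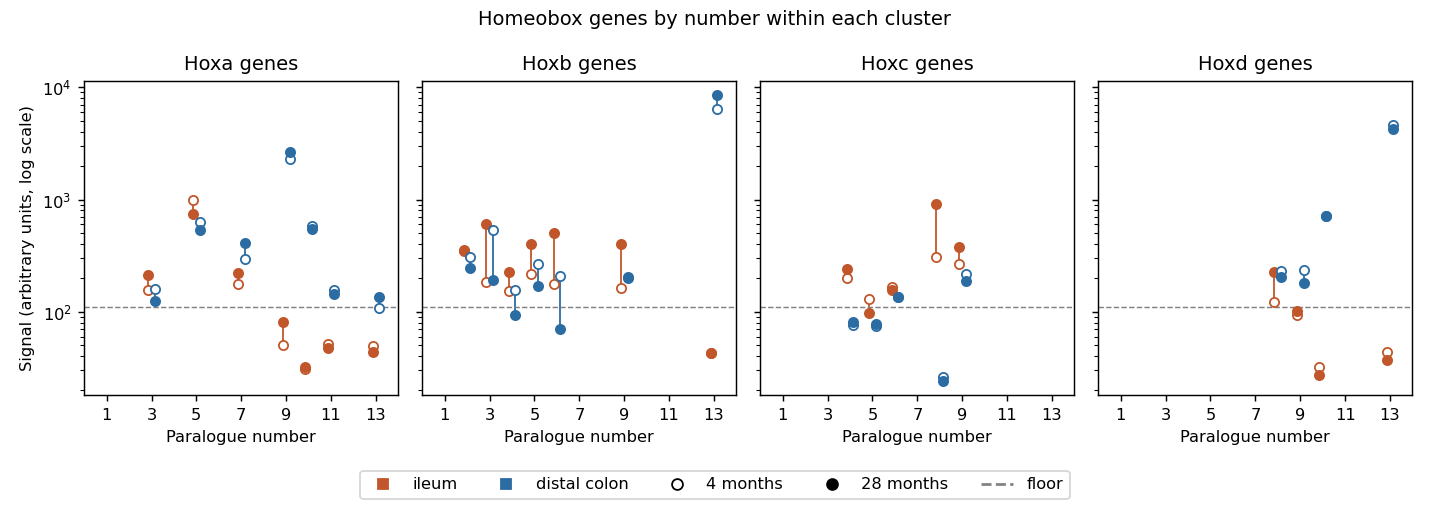
Signal (arbitrary units, log axis) of the 23 measured Hox genes against their number within each cluster, ileum and distal colon beside each other, open circles for 4 months and filled circles for 28 months, with the floor dashed. Of the called genes, Hoxb13, Hoxd13, Hoxa9, Hoxa10 and Hoxd10 are above the floor in distal colon alone, and Hoxc8 in ileum alone.

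Among 27 measured transcription factors of the epithelium, 8 were higher in ileum, 5 in distal colon and 14 were not called. Isx, which represses vitamin A uptake genes, gave 1897 and 2642 units in ileum and 519.7 and 97.5 in distal colon, at least 9.33-fold apart (adjusted p = 0.0194). Gata5 gave 941 and 960.2 units in ileum and 58.6 and 57.3 in distal colon, at least 8.59-fold apart (adjusted p = 0.000366), with jejunum at 727 and 478 units. Maf, a factor of enterocytes on the villus, gave 7675 and 9006 units in ileum and 1912 and 1445 in distal colon, and Osr2 467 and 766 units in ileum and 79.5 and 37.8 in distal colon. Maf was 5-fold and Osr2 at least 5.41-fold higher in ileum, and for Osr2 jejunum lay at 132 and 38.0 units. The paralogues Hnf4a and Hnf4g differed from each other. Hnf4g gave 1912 and 1362 units in ileum and 289 and 273 in distal colon, 5.75-fold apart (adjusted p = 0.000826), and Hnf4a gave 9483 and 10411 units in ileum and 8843 and 9161 in distal colon, with a difference of 0.14 (adjusted p = 0.342). The difference between these 2 genes was not tested. The grainyhead-family factor Tfcp2l1 gave 4491 and 6272 units in distal colon and 441 and 1383 in ileum, 6.8-fold higher in distal colon (adjusted p = 0.0063). Klf4, linked to goblet cells, and Klf5, linked to dividing crypt cells, were not called, with differences of -0.70 and 0.05. Gata4, which marks the upper small intestine, was not called, with a difference of 1.16 (adjusted p = 0.0784). Without the 4-month distal colon array, 3 of the factors were higher in distal colon.

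Of 17 measured tight junction genes, 14 were not called. The other calls were 1 in ileum and 2 in distal colon, against 5.14% and 6.42% of all genes tested. Claudin 15 (Cldn15), which forms a sodium-permeable pore, gave 4388 and 2488 units in ileum and 762 and 624 in distal colon, 4.79-fold higher in ileum (adjusted p = 0.00143). Claudin 8 (Cldn8), which seals the junction of the distal colon to sodium, gave 3493 and 3417 units in distal colon and 295 and 493 in ileum, 9.05-fold higher in distal colon (adjusted p = 0.000877), and claudin 5 (Cldn5), known from blood vessels, 593 and 613 units in distal colon and 178 and 214 in ileum. Ileum lay above jejunum for Cldn8 (ileum minus jejunum 2.10, adjusted p = 0.0256), so its signal was lowest in jejunum and highest in distal colon. Claudins 3 (Cldn3) and 7 (Cldn7) and the scaffold Tjp1 were not called, with differences of 0.20, 0.21 and -0.29.

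Muscle and matrix genes were higher in distal colon, with larger differences at 4 months. Of 15 measured smooth muscle genes, 11 were higher in distal colon and none in ileum, with a median of -2.17 at 4 months and -0.76 at 28 months. Their summed signal was 40250 and 57840 units in ileum and 131600 and 91870 in distal colon. Calponin (Cnn1) gave 10750.3 and 8206 units in distal colon and 1833 and 3286 in ileum, 3.83-fold apart (adjusted p = 0.00827), and transgelin (Tagln) 21805 and 16685 units in distal colon and 4833 and 7403 in ileum, 3.19-fold apart (adjusted p = 0.00733). Myosin light chain kinase (Mylk), found in many cells beside muscle, was not called, at 14302 and 10221 units in distal colon and 8008 and 10456 in ileum. Of 24 measured matrix genes, 10 were higher in distal colon and none in ileum, with medians of -1.18 and -0.50 and summed signals of 40030 and 46740 units in ileum and 113500 and 75360 in distal colon. Periostin (Postn) gave 12178 and 7220.4 units in distal colon and 1396 and 2046 in ileum, 5.55-fold apart, and fibronectin (Fn1) 8431 and 4598 units in distal colon and 1622 and 1983 in ileum, 3.47-fold apart. The 4-month ileum was the lowest and the 4-month distal colon the highest of the 4 arrays for Cnn1, Tagln and Fn1, and Postn followed the same order. Without the 4-month ileum array, 4 smooth muscle and 4 matrix genes were called, and without the 4-month distal colon array 4 and 3. The part of muscle and matrix in the other gene groups was not tested. Of 14 measured enteric nerve and glia genes, 2 were higher in distal colon and none in ileum, against 6.42% and 5.14% of all genes. Penk, an opioid precursor, and the neurofilament gene Nefl were the 2, by 3.86-fold and at least 3.04-fold, and the call of Nefl was lost without the 4-month distal colon array (adjusted p = 0.0561). Vip, the main secretory transmitter, was not called, at 3710.3 and 1969.7 units in distal colon and 2036 and 1729 in ileum.

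Most lymphoid genes were not called, and those called differed in side by cell type. Of 11 measured B cell genes, 5 were higher in distal colon and none in ileum, with medians of -0.47 at 4 months and -1.70 at 28 months. Their summed signal was 2002 and 1927 units in ileum and 4980 and 12720 in distal colon. The chemokine Cxcl13, which gathers B cells into follicles, gave 2685 and 7984 units in distal colon and 506 and 782 in ileum, 7.36-fold apart (adjusted p = 0.00191), and the B cell surface gene Ms4a1 gave 343 and 978 units in distal colon and 122 and 95.4 in ileum, at least 4.98-fold apart (adjusted p = 0.0128). Cd79b, a subunit of the B cell receptor, gave 391 and 793 units in distal colon and 187 and 176 in ileum, and its partner Cd79a was not called, at 116 and 220.3 units in distal colon and 188 and 180.3 in ileum. The 28-month distal colon was the highest array for Cxcl13, Ms4a1 and Cd79b, and without the 4-month ileum array 8 of the 11 genes were called. The part of lymphoid tissue in other results was not tested. Immunoglobulin M heavy chain (Ighm) was higher in distal colon, at 3601 and 9942 units in distal colon and 1721 and 1359 in ileum, but the 8 measured probe sets of Ighm ranged from -1.97 to 1.47, so this gene is uncertain. Plasma cell genes were otherwise not called, among them the IgA heavy chain Igha, at 40442 and 40261 units in ileum and 27080.1 and 35056 in distal colon, and the joining chain Jchain, at 18564 and 19211 units in ileum and 12008 and 14508 in distal colon. Of 18 measured genes of T and cytotoxic lymphocytes, 3 were higher in ileum and none in distal colon. The medians were 0.73 at 4 months and 0 at 28 months. The general T cell genes Cd3d, Cd3e, Cd3g, Cd4 and Cd8a were not called, with differences of 0.12, 0.32, 0.47, 0.06 and -0.34. Granzyme A (Gzma) gave 1441 and 597 units in ileum and 94.2 and 65.8 in distal colon, at least 8.38-fold apart (adjusted p = 0.00208), granzyme B (Gzmb) 508 and 196 units in ileum and 85.1 and 69.0 in distal colon, and the small-bowel homing receptor Ccr9 268 and 277 units in ileum and 76.9 and 84.1 in distal colon. For both granzymes jejunum exceeded ileum, at 2828 and 3173 units for Gzma and 885 and 679.7 for Gzmb. The Gzmb difference was 0.82 without the 4-month ileum array, and without the 28-month distal colon array 5 genes of the group were higher in ileum. Among 13 macrophage genes the endotoxin coreceptor Cd14 alone was called, against 6.42% of all genes tested higher in distal colon. Cd14 was 2.38-fold higher in distal colon, at 6032 and 6522 units in distal colon and 2333 and 2985 in ileum. The mast cell protease Cma1 and the follicle chemokine Ccl20 were higher in distal colon by at least 2.31-fold and 2-fold, with 28-month differences of -1.65 and -1.51 against -0.77 and -0.50 at 4 months. The call of Ccl20 was lost without any 1 of the 28-month ileum, the 4-month distal colon or the 28-month distal colon array (adjusted p = 0.0882, 0.0675 and 0.163).

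**Figure D5:**
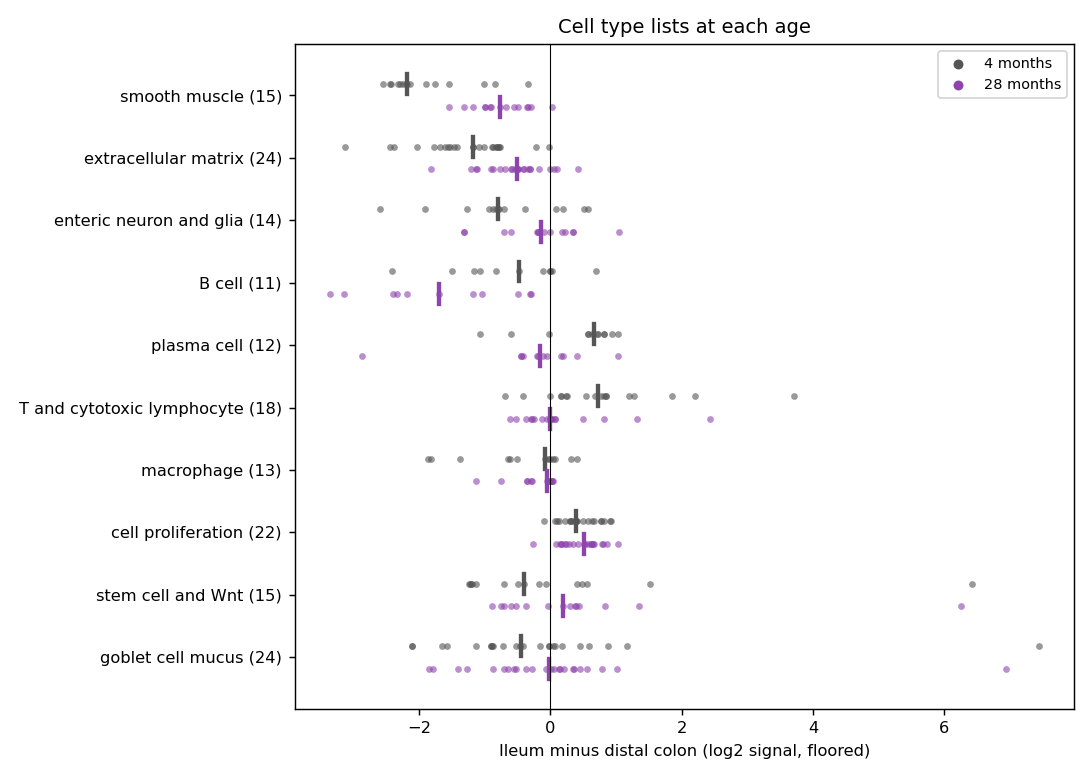
Difference between ileum and distal colon (log2 signal after the floor) for each measured member of 10 cell type lists at 4 months (grey) and at 28 months (purple), with a bar at each median and the number of members in brackets. The smooth muscle median moves from -2.17 to -0.76 and the B cell median from -0.47 to -1.70, whereas the cell proliferation medians lie at 0.39 and 0.52.

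Crypt genes gave few calls. None of 22 measured proliferation genes was called, although 20 were above 0 at both ages and the median was 0.42. Pcna, a clamp of DNA replication, gave 6862 and 6569 units in ileum and 5521 and 5814 in distal colon, and Mki67 1733 and 1732 units in ileum and 1642 and 1361 in distal colon. Of 15 stem cell and Wnt genes, Olfm4 and Lgr5 were higher in ileum and Sox9 in distal colon. Lgr5, the marker of crypt base stem cells, gave 416 and 620.1 units in ileum and 145 and 242 in distal colon, 2.71-fold apart (adjusted p = 0.00578), and Sox9, a crypt factor, 846 and 896 units in distal colon and 368 and 483 in ileum, 2.06-fold apart (adjusted p = 0.00579). Without the 4-month ileum array the Sox9 difference was -0.89, under 2-fold. Without either 4-month array none of the group was higher in distal colon, and without either 28-month array 5 were. The tuft cell kinase Dclk1 was at least 3.52-fold higher in distal colon, at 352 and 432 units in distal colon and 69.1 and 102 in ileum, whereas the tuft cell genes Alox5ap, Avil and Hpgds were not called, with differences of -0.59, 0.36 and 0.81. Pancreatic enzyme genes gave 1 call of 5, colipase (Clps), 7.94-fold higher in ileum, at 4268 and 2418 units in ileum and 408 and 401 in distal colon. The elastase Cela3b and the chymotrypsinogen Ctrb1 were high in jejunum, at 4867 and 4884 units for Cela3b, and were not called between ileum and distal colon.

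The ages were set side by side with no test, since each segment had 1 array per age. The labels do not say whether the intestinal arrays of both ages were prepared together. Any difference in preparation between them cannot be told apart from age. The difference was smaller at 28 months for 464 of the 668 genes higher in ileum and for 630 of the 834 higher in distal colon. Over all genes tested, the share 2-fold or more higher in ileum also fell, from 6.9% at 4 months to 5.04% at 28 months. The share 2-fold or more higher in distal colon fell from 9.54% to 5.11%. For 29 of the genes higher in ileum the 4-month ileum signal was at least 4 times that at 28 months, and for 1 gene the reverse held. The 6 genes higher in ileum that moved most were Dnase1, a nuclease, with differences of 6.81 at 4 months and 0.54 at 28 months, Apoc2, the activator of lipoprotein lipase, with 7.53 and 2.48, Fabp1 with 8.13 and 3.20, Gip with 5.89 and 1.05, Adh6a with 6.00 and 1.44, and Tmigd1, a brush border adhesion protein, with 2.44 and 6.90. For Dnase1 and Apoc2 the ileum arrays differed, at 12419 and 161 units and at 20402 and 806. For Tmigd1 the distal colon arrays did, at 2571 and 191 units. In 11 genes higher in ileum, among them Alpi, Nts, Reg3g and Slc51a, the distal colon signal was at least 2 floors at 4 months and at the floor at 28 months, and in 1 gene the reverse held. Among the genes higher in distal colon, Ahnak2, a large scaffold protein, moved from -3.95 to -2.01, Prdm14, a germ cell regulator, from -1.33 to -3.21, and Matn2, a matrix adaptor, from -2.63 to -0.78. The calls of Dnase1, Apoc2 and Matn2 were lost without the 4-month distal colon array (adjusted p = 0.138, 0.129 and 0.109).

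Signals of the called genes in the other tissues are given as shares of each set. A signal of at least 2 floors on both jejunum arrays was found for 622 of the 668 genes higher in ileum (93.1%), for 466 of the 834 higher in distal colon (55.9%) and for 72.4% of all genes tested. In liver the shares were 57.5%, 51.1% and 66.6%, and in spleen 42.7%, 57.8% and 68.8%. Between ileum and jejunum, 76 of the tested genes (0.585%) passed an adjusted p below 0.05, and since those contrasts share the ileum arrays the values are given side by side and not compared. Neighbouring genes were called together in places. The longest run of tested neighbours was 7 genes higher in distal colon on chromosome 3, namely S100a1, S100a13, S100a14, S100a16, S100a4, S100a6 and Lor, most of them calcium-binding proteins.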

How the data were processed

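Pooled RNA of 5 tissues and 2 ages was read on 10 arrays. The authors deposited log2 signals per probe set, already normalized by a method not given in the sources used here; MAS5 and affy are named, without version or role, per the submitters' processing notes. Deposited values were taken out of the log, scaled to a trimmed mean of 500 (2% at each end, factors 2.42 to 2.57) and raised to a floor of 111, the median signal. Of 45101 probe sets, 34958 named 1 gene, 932 several and 9211 none, and each gene took its brightest probe set over the 4 arrays. limma 3.58.1 (trend) was fitted to the 6 intestinal arrays with terms for segment and age, age pairing arrays of the same mice (2 residual degrees of freedom), with Benjamini-Hochberg adjustment over 12993 genes. The fit was run on simulated data with changes made only in genes well above the floor, which cannot speak for genes near it. Members and the 36 gene lists were chosen with earlier results of these data known, so no list was tested as a set. Named genes were the 12 largest per direction with agreeing probe sets, up to 6 called and 3 uncalled members per list, label markers, and genes that moved most between ages. The alternatives covered the floor, the filter, scaling, probe sets, the fold threshold, the fit and each array left out. Promoters came from RefSeq. R 4.3.3, Python 3.11.15, numpy 2.4.6, pandas 2.3.3 and matplotlib 3.10.9 were used.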

Additional observations from a re-analysis of the deposited data

Results flagged for a closer look

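In 9 genes ileum was 2-fold or more above distal colon at 1 age and 2-fold or more below it at the other, and the difference between the ages was not tested, since each segment had 1 array per age. The carboxylesterase Ces1g differed by -1.16 at 4 months and 3.27 at 28 months, with distal colon at 1139 and 93.8 units. 1810065E05Rik differed by -2.75 and 1.44, with distal colon at 12325 and 999.6 units. Hoxb3 differed by -1.55 and 1.67, and the carbonic anhydrase-related gene Car8 by -1.39 and 1.58. In the other 5 genes ileum was the higher segment at 4 months. The glutathione transferase Gstm6 differed by 2.05 and -1.58, and its relative Gstm7 by 1.01 and -1.30. The folate carrier Slc46a1 differed by 2.17 and -1.07, the carboxylesterase Ces2g by 1.14 and -1.60, and the lipoprotein receptor Scarb1 by 1.21 and -1.10. In these 5 the ileum signal was lower at 28 months, as in Slc46a1 with 1038 and 142 units, and jejunum was above ileum at both ages, at 2206 and 2129 units for Slc46a1. None of the 9 was called.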

How the results depend on the processing

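The counts of 668 genes higher in ileum and 834 higher in distal colon stayed within 1.5 times under most settings. They moved further with the floor at percentile 75 (437 higher in distal colon), the median of each gene's measured probe sets (533 in distal colon), the 2-fold rule at both ages with no test (502 in distal colon) and thresholds of 1.5-fold (1234 and 1863) or 3-fold (364 and 300). Leaving out 1 array left the difference to the other age alone, with no rule on the sign at both ages. Counts from those fits are therefore not like the 668 and 834. Without the age term, that is with no replicate block for the pairing of arrays of the same mice, the counts were 645 and 829. No median of a gene list of at least 2-fold changed sign. Leaving out 1 array turned the sign of 29 of 252 named genes, of which 6, not called with all arrays, were then called on the other side: Slc46a1 (-1.07 to 2.17), Gstm6 (-1.58 to 2.05), Scarb1 (-1.10 to 1.21), Ces2g (-1.60 to 1.14), Gstm7 (-1.30 to 1.01) and Ces1g (-1.16 to 3.27). St3gal6 turned to 0.0053 with the median taken over probe sets, and Hoxa5 to -1.037 and Ighm to 1.4745 without probe sets that can read several transcripts. The cause was not tested. Signal over background limits the 93 and 87 called genes at the floor on both arrays of the dimmer segment to lower bounds. Folds with 1 of those arrays at the floor, also written "at least", are lower bounds as well. Sampling positions are not given, so segment and position along the bowel cannot be told apart.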

Other observations

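Some lists touched other cells of the wall. Of 9 measured genes of antigen presentation by MHC class II, 8 were not called and H2-Ob, which tempers peptide loading in B cells, was at least 3.31-fold higher in distal colon, at 304 and 502 units in distal colon and 126 and 107 in ileum. H2-Ab1, a class II chain, was above distal colon in ileum at both ages, at 5239 and 6998 units in ileum and 4195 and 4392 in distal colon, with adjusted p = 0.0387 in the limma fit but a difference of 0.50, short of 2-fold. Of 8 genes of M cells and follicle epithelium, 2 were higher in distal colon, Ccl20 and Anxa5, the latter at 2808 and 3103 units in distal colon and 1029.7 and 1652 in ileum. The Anxa5 difference was -0.91 without the 4-month ileum array. Of 6 measured mast cell genes, Cma1 was the 1 called, against 6.42% of all genes tested higher in distal colon. Kit, a receptor of mast cells and of pacemaker cells, was not called, at 1081 and 901 units in distal colon and 382 and 779 in ileum. Of 5 adipocyte genes, the lipid droplet protein Cidec was at least 5.67-fold higher in ileum, at 1026 and 384 units in ileum and 66.2 and 50.2 in distal colon, while the fat cell markers Fabp4 and Retn were not called, with differences of 0.08 and 0.25.

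Ileum did not always lie between jejunum and distal colon in signal, as 3 genes chosen after their values were seen show. Muc1 was higher in jejunum than in ileum (ileum minus jejunum -2.04, adjusted p = 0.0338), as was Wfdc2 (-3.53, adjusted p = 0.00144), with 1231 and 1296 units in jejunum, and Sycn (-2.78, adjusted p = 0.027), with 3302 and 5388. For these 3 genes ileum was the lowest of the 3 segments.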
